A study of Mus musculus with 3 samples.

Results

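The *Slc38a5*-positive endothelial cells (ECs) of the neonatal mouse retina described here were 285 of 2380 non-cycling ECs, taken from 3201 ECs among 29084 cells with at least 1000 unique molecular identifiers (UMIs, each a captured transcript) and at most 15% mitochondrial UMIs. They were selected on their own counts: a cell was an EC when 8 endothelial genes together reached 10 UMIs per 10000, with at least 3 of them detected and 3 microglial genes together below 5 per 10000. It was non-cycling when *Top2a*, *Mki67* and *Cenpf* together stayed below 3 per 10000. A non-cycling EC was *Slc38a5*-positive when it held at least 2 *Slc38a5* UMIs and at least 2 per 10000. The 1857 non-cycling ECs without an *Slc38a5* UMI are called *Slc38a5*-negative, and 238 ECs with a UMI below the gate lay between. By library, 208 positive ECs came from wild-type (WT) mice, 18 from the *Tspan12* KO and 59 from the *Ctnnb1* cKO, against 100, 214 and 1543 negative ECs.

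The study profiled retinal vascular cells of mice at postnatal day 6, with 1 droplet library for each of 3 genotypes on a C57BL/6 background. WT mice were labelled as wild type with no allele named, and *Tspan12* KO mice as knockouts of *Tspan12* with no Cre named. *Ctnnb1* cKO mice carried floxed *Ctnnb1* that tamoxifen-activated *Pdgfb*-iCreER deletes in vascular endothelium. Each library is a pool of mice, and the sources used here do not say whether WT mice received tamoxifen or carried the Cre, so the effects of these cannot be told apart from that of the deletion. WT mice came from other litters than the mutants, so litter and genotype cannot be told apart in any comparison with WT. Endothelium and microglia had been enriched on magnetic beads against CD31 and CD11b before capture, and the genotype comparison asks what the loss of a Norrin receptor component, or of beta-catenin itself, does to retinal ECs.

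Norrin, secreted by Müller glia, binds Frizzled4 and LRP5 or LRP6 on retinal ECs, and TSPAN12 strengthens that signal. Beta-catenin, encoded by *Ctnnb1*, then enters the nucleus and acts with TCF and LEF factors on genes for vessel growth and for the blood-retina barrier. SLC38A5 is a sodium-coupled transporter that carries glutamine, serine, glycine and other neutral amino acids across the plasma membrane, and the capillary endothelium of the central nervous system is known for its dense set of such nutrient carriers. ITM2A is a small membrane protein, apolipoprotein D (*Apod*) a secreted lipid-binding lipocalin, and LRP8 a receptor for reelin and apolipoprotein E.

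The libraries differed in depth, with 9951 barcodes in WT and 14426 and 9151 in the *Tspan12* KO and *Ctnnb1* cKO libraries, and median UMIs per barcode of 4974, 3166 and 2790. The positive ECs were deeper than the negative ECs in each library, with median UMIs of 14804.5 against 7799.5 in WT, 21572 against 10737.5 in *Tspan12* KO and 6834 against 3753 in *Ctnnb1* cKO. Pairs of libraries shared 21 to 37 barcode sequences, and 2 of these belonged to positive ECs. The targeted genes do not check the genotype labels, because a tag at the transcript end may lie outside a deleted part. In the positive ECs *Tspan12* stood at 106 CPM (UMI counts scaled to a common total) in WT and 64.0 and 23.3 in the *Tspan12* KO and *Ctnnb1* cKO libraries, and *Ctnnb1* at 521, 524 and 458 CPM. *Tspan12* was thus still read in the library labelled *Tspan12* KO.

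The sequences around the start sites of *Slc38a5* and of 3 genes that were higher in the positive ECs, the lipocalin *Apod* and the carriers *Slc16a1* and *Slc22a8*, are shown because their transcripts were high in the same cells. They come from RefSeq on GRCm38.p6 (the submitters' notes name GRCm39 for the count files and the methods an older build), at chrX:8271131-8271430 (plus strand), chr16:31314759-31315058 (minus), chr3:104638414-104638713 (plus) and chr19:8592932-8593231 (plus). Each runs 5′ to 3′ from 250 bases before the annotated start to 50 bases after it, and the capitals mark the 50 bases from the start onward.
Slc38a5: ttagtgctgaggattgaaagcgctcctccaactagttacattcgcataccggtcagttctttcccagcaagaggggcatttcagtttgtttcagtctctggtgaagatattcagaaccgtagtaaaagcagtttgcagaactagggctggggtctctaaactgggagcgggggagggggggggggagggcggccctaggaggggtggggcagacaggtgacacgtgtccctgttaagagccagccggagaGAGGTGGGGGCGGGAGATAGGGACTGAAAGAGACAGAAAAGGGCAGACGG
Apod: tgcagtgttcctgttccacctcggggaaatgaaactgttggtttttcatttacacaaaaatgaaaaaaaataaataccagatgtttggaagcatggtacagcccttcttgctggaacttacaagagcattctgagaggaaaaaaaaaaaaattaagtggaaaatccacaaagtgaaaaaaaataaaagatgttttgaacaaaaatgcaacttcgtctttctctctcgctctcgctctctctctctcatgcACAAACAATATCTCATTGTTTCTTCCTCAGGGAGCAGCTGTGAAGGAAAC
Slc16a1: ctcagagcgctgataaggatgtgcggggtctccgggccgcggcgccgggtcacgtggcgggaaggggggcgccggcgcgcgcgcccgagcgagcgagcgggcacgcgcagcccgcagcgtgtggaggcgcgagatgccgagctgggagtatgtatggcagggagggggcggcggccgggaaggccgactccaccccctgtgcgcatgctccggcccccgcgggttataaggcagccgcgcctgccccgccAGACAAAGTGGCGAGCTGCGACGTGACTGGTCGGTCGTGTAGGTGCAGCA
Slc22a8: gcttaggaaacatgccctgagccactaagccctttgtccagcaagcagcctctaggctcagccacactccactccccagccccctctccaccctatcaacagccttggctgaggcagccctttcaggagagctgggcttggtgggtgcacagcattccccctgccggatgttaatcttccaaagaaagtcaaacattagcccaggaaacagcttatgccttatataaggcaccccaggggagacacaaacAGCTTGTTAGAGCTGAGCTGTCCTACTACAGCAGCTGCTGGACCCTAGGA
Such windows were found for 8 of 11 genes, *Slc38a5* and the 10 genes with the largest rises in positive ECs. These 8 included *Gfap* and *Mlc1*, astrocyte genes whose rises are described below. The TCF/LEF core letters ATCAAAG and TTCAAAG, searched on both strands, were in 0 of the 8 windows. Of 32851 windows of all genes, 3.73% held ATCAAAG, 5.14% held TTCAAAG and 8.65% held either.

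*Slc38a5*-positive ECs were common in WT and rare in both mutants. They made up 52.5% of non-cycling ECs in WT (208 of 396, 95% exact binomial interval 47.5 to 57.5), 6.27% in *Tspan12* KO (18 of 287, 3.76 to 9.73) and 3.48% in *Ctnnb1* cKO (59 of 1697, 2.66 to 4.46). The WT share was 8.37 times that of *Tspan12* KO and 15.1 times that of *Ctnnb1* cKO. With 1 library a genotype there is no test of these differences, and all intervals here cover counting error only.

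Because a gate in UMIs reads depth, each non-cycling EC was also thinned to 2000 UMIs, which left out 7, 21 and 325 shallower cells. An *Slc38a5* UMI then remained in 39.6% of WT ECs (154 of 389, 34.7 to 44.6), 7.52% of *Tspan12* KO ECs (20 of 266, 4.65 to 11.4) and 4.59% of *Ctnnb1* cKO ECs (63 of 1372, 3.55 to 5.84). Before thinning the shares with any UMI were 74.7%, 25.4% and 9.07%. At equal depth the WT share was 5.27 and 8.62 times the mutant shares, and the intervals of the mutants overlapped each other. Rods, which should lack the transporter, gave a background of 1.27% in WT (0.879 to 1.77), 0.0414% in *Tspan12* KO (0.00501 to 0.149) and 0.230% in *Ctnnb1* cKO (0.00583 to 1.28) at 2000 UMIs. Unthinned, 4.59%, 0.340% and 1.83% of rods held a UMI, at median depths of 5728, 7076 and 4437. All non-endothelial cells together gave 1.06% (0.848 to 1.31), 0.0687% (0.0252 to 0.149) and 1.09% (0.801 to 1.46) at 2000 UMIs, and cells that were neither ECs nor rods held 3.41%, 4.43% and 20.1% of the *Slc38a5* UMIs of WT, *Tspan12* KO and *Ctnnb1* cKO. Each EC share was above both background shares of its own library.

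**Figure D1:**
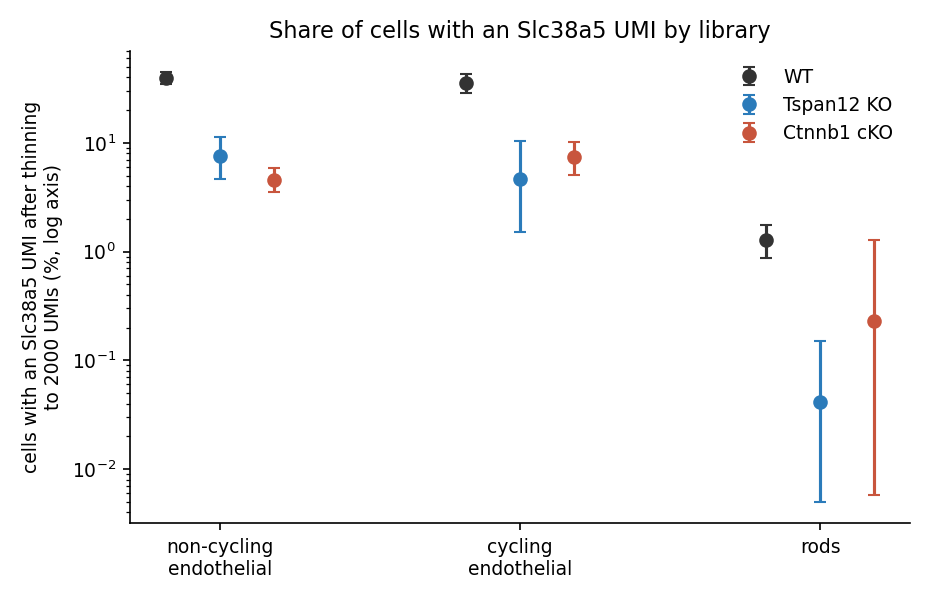
Share of cells with an *Slc38a5* UMI after thinning each cell to 2000 UMIs, in percent on a log axis, for non-cycling ECs, ECs in cycle and rods of each library (points with 95% exact binomial intervals). WT lies at 39.6% of non-cycling and 35.5% of cycling ECs, the mutants between 4.59% and 7.52%, and rods at 1.27% or less.

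Summed over all non-cycling ECs, *Slc38a5* stood at 355 CPM in WT (95% Poisson interval 343 to 367), 42.1 in *Tspan12* KO (37.0 to 47.7) and 34.1 in *Ctnnb1* cKO (30.4 to 38.1). The log2 ratio to WT was -3.08 in *Tspan12* KO (-3.27 to -2.89) and -3.38 in *Ctnnb1* cKO (-3.55 to -3.21), which is 8.43-fold and 10.4-fold lower. The drop was also seen in ECs in cycle, of which 45.5% (91 of 200) passed the same *Slc38a5* gate in WT, 4.39% (5 of 114) in *Tspan12* KO and 7.50% (38 of 507) in *Ctnnb1* cKO. The positive non-cycling ECs held 54.6% of all *Slc38a5* UMIs of the WT library, 30.5% in *Tspan12* KO and 30.1% in *Ctnnb1* cKO, and ECs in cycle held another 34.7%, 29.1% and 31.8%.

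The positive ECs that remained in the mutants also carried less *Slc38a5*. Per cell the level ran from 2.01 to 22.0 per 10000 in WT with a median of 6.15, from 2.03 to 6.36 in *Tspan12* KO with a median of 2.56, and from 2.07 to 28.8 in *Ctnnb1* cKO with a median of 4.12. The ranges overlapped above the gate, and the median of the 18 *Tspan12* KO cells lay nearest to it. Summed over the positive ECs the level was 598 CPM in WT (578 to 619), 294 in *Tspan12* KO (245 to 351) and 429 in *Ctnnb1* cKO (371 to 492). The gate chose these cells on this same value, so the levels are a description. Close to the gate, 13, 5 and 4 cells lay between 1.5 and 2 per 10000 and 12, 9 and 7 between 2 and 2.5, in the order WT, *Tspan12* KO and *Ctnnb1* cKO. A further 10, 4 and 47 cells reached 2 per 10000 on a single UMI and were not counted as positive, most of them in the shallow *Ctnnb1* cKO library.

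The label was checked against its markers *Itm2a*, *Apod* and *Lrp8*, which had been picked with these data in view and so are no independent support. *Itm2a* stood at 1310 CPM in WT positive ECs (1280 to 1341), 1008 in *Tspan12* KO (915 to 1109) and 556 in *Ctnnb1* cKO (491 to 627), against 422, 223 and 126 CPM in the negative ECs. It was detected in 98.6%, 100% and 79.7% of positive ECs and in 79.0%, 71.0% and 34.3% of the shallower negative ECs. *Apod* stood at 250, 107 and 140 CPM in the positive and at 37.7, 5.04 and 33.9 CPM in the negative ECs. *Lrp8* stood at 460, 256 and 284 against 151, 70.0 and 56.2 CPM. The identifiers in the files are ENSMUSG00000031170 for *Slc38a5*, ENSMUSG00000031239 for *Itm2a*, ENSMUSG00000022548 for *Apod* and ENSMUSG00000028613 for *Lrp8*. For all 3 markers each library's positive ECs were above each library's negative ECs. The tight-junction gene *Cldn5* was present in every WT positive EC, from 6.06 to 136 per 10000. It was also present in all 88 WT ECs below the gate and in 92% of the WT negative ECs, so its presence does not mark the positive ECs.

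The markers followed the *Slc38a5* level in steps within WT. From ECs with no *Slc38a5* UMI, through those below the gate, to positive ECs below 5, from 5 to 10 and at 10 or more per 10000 (100, 88, 86, 83 and 39 cells), *Itm2a* stood at 422, 791, 1140, 1467 and 1600 CPM. *Apod* stood at 37.7, 119, 193, 293 and 388 CPM over the same cells, and *Lrp8* at 151, 249, 427, 495 and 499 CPM. Neighbouring intervals did not overlap for *Apod*, whereas for *Itm2a* and *Lrp8* the 2 highest groups overlapped. Median depth went from 7799.5 UMIs in the ECs without *Slc38a5* to 21988.5 below the gate and back to 7841 in the highest group, so the order of the levels was not the order of depth. In *Tspan12* KO *Itm2a* stood at 223, 469 and 998 CPM in ECs with no UMI, below the gate and up to 5 per 10000 (214, 55 and 17 cells). In *Ctnnb1* cKO it stood at 126, 297 and 583 CPM over the same steps (1543, 95 and 38 cells), and its 15 cells from 5 to 10 had 495 CPM with an interval of 362 to 660 that overlapped the step before, while the 6 cells at 10 or more had 277 CPM (75.4 to 708). *Apod* stood at 5.04, 36.2 and 108 CPM over the 3 steps of *Tspan12* KO. In *Ctnnb1* cKO it did not follow the steps, at 33.9 CPM with no UMI, 197 below the gate (163 to 236), 132 up to 5 (97.2 to 175), 161 from 5 to 10 and 207 at 10 or more. *Lrp8* stood at 70.0, 155 and 242 CPM in *Tspan12* KO and at 56.2, 166, 294, 247 and 277 CPM in *Ctnnb1* cKO.

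**Figure D2:**
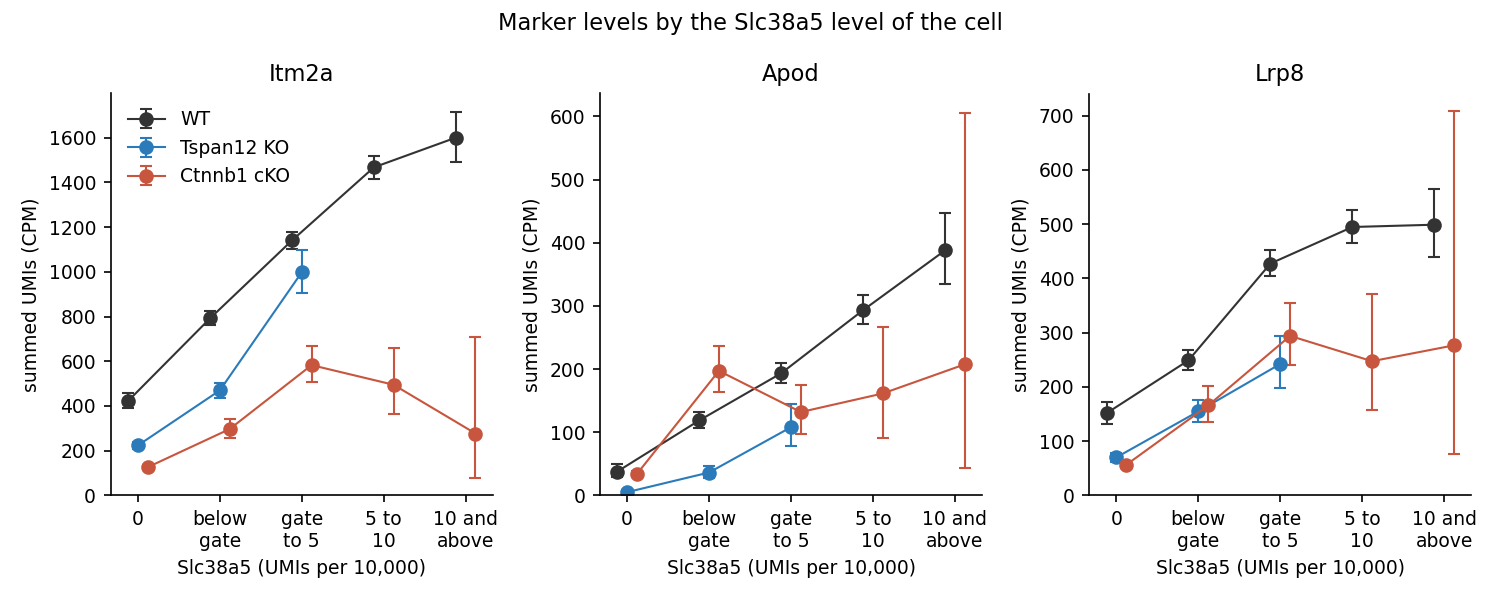
*Itm2a*, *Apod* and *Lrp8* (1 panel each) in CPM for non-cycling ECs grouped along the x axis by their *Slc38a5* level in UMIs per 10000, 1 line per library, with 95% Poisson intervals and groups under 5 cells left out. In WT *Itm2a* goes from 422 to 1600 CPM and *Apod* from 37.7 to 388 CPM.

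Gene by gene, positive were compared with negative ECs by summing counts per library and class and testing 12294 genes with edgeR's quasi-likelihood test, the library as a block and Benjamini-Hochberg adjustment. The p asks whether a difference holds over 3 libraries of different genotype. The spread it uses is that between these libraries, estimated largely over all genes (2 residual degrees of freedom a gene against a median of 13.04 prior ones). In all, 104 genes were higher (0.846% of those tested) and 208 lower (1.69%) in the positive ECs, of which 100 and 200 had the same direction in each library, and the median log2 change of all genes was -0.02. The counts were 45 and 29 without the WT library, 140 and 336 without *Tspan12* KO, and 167 and 351 without *Ctnnb1* cKO. DESeq2 gave 78 higher and 77 lower, a different split. It returned no adjusted p for 2150 of the 12294 genes, which could not be called. On these same counts all of the 104 and 208 genes kept their direction in DESeq2. In cells of at least 5000 UMIs of both classes, where depth differs less, 88 were higher and 167 lower, and 88 and 166 of these were among the 104 and 208. The sexes of the pooled mice were mixed differently in the classes: of cells with transcripts of one sex only, *Xist* cells were 28.5%, 100% and 25.9% of the positive and 29.9%, 86.1% and 69.3% of the negative ECs in WT, *Tspan12* KO and *Ctnnb1* cKO. Within *Xist* cells alone 13 genes were higher and 32 lower, and 96 of the 96 higher and 171 of the 172 lower genes that could be fitted there kept their direction. Both subsets are part of the cells that gave the calls, so this agreement is no independent check. The *Xist* cells held 17 of the 18 *Tspan12* KO positive ECs.

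The 3 markers were among the higher genes. *Apod* was higher by 2.86 on the log2 scale (SE 0.29, adjusted p 5.05e-05), *Itm2a* by 2.04 (SE 0.16, adjusted p 3.13e-06) and *Lrp8* by 1.99 (SE 0.16, adjusted p 4.92e-06). Their selection on these data leaves these values descriptive.

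Among nutrient and barrier carriers 7 of 22 genes tested were higher and 1 was lower, with a list median of 0.39. The largest change was that of *Slc16a1*, the carrier of lactate and ketone bodies, at 42.5 CPM in WT and 28.5 and 17.0 in the *Tspan12* KO and *Ctnnb1* cKO positive ECs against 3.36, 2.12 and 1.14 in negative ECs (log2 3.80, SE 0.38, adjusted p 3.91e-05). *Slc22a8*, a carrier of organic anions, stood at 62.2, 21.3 and 23.3 against 2.69, 3.45 and 3.67 CPM (log2 3.26, SE 0.38, adjusted p 0.00014). For both genes the groups did not overlap, and the lowest positive value was several-fold above the highest negative one. The positive ECs held 421567 UMIs of all genes in *Tspan12* KO and 471374 in *Ctnnb1* cKO. The mutant values of these 2 carriers therefore rest on few UMIs. Of the amino acid carriers, *Slc1a4*, an exchanger of serine and other neutral amino acids, stood at 131, 83.0 and 50.9 against 37.7, 18.8 and 11.6 CPM (log2 2.06, adjusted p 2.31e-05). *Slc7a1*, which takes up arginine and lysine, stood at 601, 652 and 562 against 305, 363 and 174 CPM (log2 1.23, adjusted p 0.000468). *Mfsd2a*, which carries lysophospholipids and limits vesicle transport across brain endothelium, was also higher, at 238, 157 and 144 against 86.1, 83.7 and 64.6 CPM (log2 1.26, adjusted p 0.000479).

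The transferrin receptor *Tfrc* and the thyroid hormone carrier *Slco1c1* passed the test with less even values. *Tfrc* stood at 235, 56.9 and 23.3 CPM in the positive and 47.1, 45.3 and 16.5 CPM in the negative ECs (log2 1.40, adjusted p 0.0274), so most of its difference was in WT. *Slco1c1* stood at 51.1, 16.6 and 65.8 against 13.5, 21.5 and 18.9 CPM (log2 1.41, adjusted p 0.0231), with *Tspan12* KO the other way. *Slco1a4*, a carrier of organic anions and steroid conjugates, was the 1 lower gene, at 2.20, 4.74 and 12.7 against 16.1, 61.5 and 49.0 CPM (log2 -2.65, adjusted p 0.000245). Other barrier carriers did not pass. The glucose carrier *Slc2a1* stood at 716, 712 and 649 against 643, 1043 and 985 CPM (log2 -0.27, adjusted p 0.682), the efflux pump *Abcb1a* at 204, 147 and 242 against 185, 221 and 281 CPM (log2 -0.13, adjusted p 0.893) and the leucine carrier *Slc7a5* at 841, 828 and 668 against 398, 863 and 511 CPM (log2 0.53, adjusted p 0.232). Without the WT library 4 carriers were higher and 1 lower of 21 fitted, with *Tfrc*, *Slco1c1* and *Slc22a8* no longer past the test, without *Tspan12* KO 10 were higher, and in *Xist* cells alone 2 were higher and 1 lower of 20.

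Within the SLC38 family itself, 1 of 7 other genes tested was higher and none lower. That gene was *Slc38a3*, a carrier of glutamine, at 76.9, 71.2 and 67.9 CPM in positive ECs of WT, *Tspan12* KO and *Ctnnb1* cKO against 39.0, 26.0 and 23.8 in negative ECs (log2 1.34, SE 0.19, adjusted p 0.000907). *Slc38a2*, the adaptive amino acid carrier of many cells, stood at 473, 415 and 365 against 497, 360 and 289 CPM (log2 0.21, adjusted p 0.694). Of 14 genes of glutamine, serine and glycine metabolism 0 passed in either direction (list median -0.12), although 1 was higher with Scrublet doublets removed, without *Tspan12* KO and without *Ctnnb1* cKO, and of 8 tested genes of the amino acid response 0 passed (median -0.24). The nearest was *Phgdh*, the first enzyme of serine synthesis, at 22.0, 23.7 and 14.9 against 7.40, 15.1 and 6.46 CPM (log2 1.22, adjusted p 0.0817), which was above the negative value in each library.

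The Norrin receptor genes and the TCF and LEF factors did not separate the classes, with 0 of 9 past the test and a list median of -0.04. *Fzd4*, the Norrin receptor, stood at 65.5, 66.4 and 99.7 CPM in the positive and 80.1, 69.7 and 112 in the negative ECs, and *Lef1* at 308, 339 and 316 against 201, 399 and 329 CPM. Of 10 genes listed as targets of the pathway 4 were higher and none lower. They included the transcription factors *Ppard* (log2 1.42, adjusted p 0.000266), *Foxq1* (log2 0.98, adjusted p 0.00153) and *Foxf2* (log2 0.82, adjusted p 0.00696). The feedback inhibitors that report pathway activity in many tissues did not pass. *Axin2* stood at 15.7, 9.49 and 27.6 against 15.5, 44.0 and 33.5 CPM (log2 -0.48, adjusted p 0.678). *Nkd1* stood at 45.0, 16.6 and 8.49 against 17.5, 150 and 39.1 CPM, higher in the positive ECs of WT and lower in those of both mutants (log2 -0.63, adjusted p 0.788). Without WT 3 of the 10 targets were higher and 1 lower, with *Foxf2* no longer past the test, against negative ECs with *Cldn5* and no *Plvap* 1 of 9 was higher, and in *Xist* cells 0 of 9 passed.

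A pair of tight-junction genes was higher and the diaphragm gene *Plvap* lower. *Cldn5* stood at 4745, 3300 and 2215 CPM in positive against 3147, 2084 and 1629 in negative ECs (log2 0.63, SE 0.15, adjusted p 0.0304), and *Lsr*, which places junctions where 3 cells meet, at 163, 185 and 110 against 88.8, 79.5 and 42.5 CPM (log2 1.20, adjusted p 0.000468). These were 2 of 9 tight-junction genes, with 0 lower and a list median of 0.25. *Plvap*, which forms the diaphragms of leaky vessels, stood at 85.3, 168 and 97.6 against 119, 337 and 351 CPM (log2 -0.99, SE 0.22, adjusted p 0.0238), and was the 1 gene of 6 in its list with caveolar genes to pass. The *Plvap* gap was narrowest in WT, and *Plvap* did not pass without the *Ctnnb1* cKO library (log2 -0.59) or in cells of at least 5000 UMIs (log2 -1.01). *Cldn5* did not pass without WT or without *Tspan12* KO, and neither gene passed in *Xist* cells. In all *Cldn5* passed in 10 of 17 alternatives (adjusted p 0.00189 to 0.387), *Plvap* in 13 of 17 and *Lsr* in 15 of 17. *Cldn5* and *Lsr* both failed against negative ECs with *Cldn5* and no *Plvap*, and *Cldn5* and *Plvap* both failed with a gate of 1 *Slc38a5* UMI. The former negative ECs were chosen on *Cldn5* and *Plvap*, which sets the contrast of these 2 genes in advance. That alternative, counted among the 17, therefore decides nothing for either of them. *Plvap* passed there as a higher gene (log2 10.50), and that pass of opposite sign is counted among its 13.

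Of the arterial and tip cell genes, those that passed were all lower in the positive ECs. Summed, the arterial list stood at 642, 935 and 503 CPM in positive against 2204, 987 and 1303 in negative ECs, and the tip list at 758, 591 and 1124 against 1840, 951 and 1317 CPM. The gap was wide in WT, and the arterial sums of *Tspan12* KO had overlapping intervals (845 to 1032 and 955 to 1019). Of 13 arterial genes tested 9 were lower and 0 higher, with a list median of -1.58. *Gja5*, the arterial connexin, stood at 0.183, 0 and 2.12 CPM in positive and 36.3, 3.45 and 14.9 in negative ECs. *Bmx*, an arterial kinase, stood at 2.38, 2.37 and 0 against 78.7, 8.22 and 43.7 CPM (adjusted p 6.87e-06). *Hey1*, a Notch target, was lower by log2 -2.20 (adjusted p 0.000446), and *Unc5b*, *Sema3g*, *Vegfc*, *Gja4*, *Efnb2* and *Dll4* lay between -2.09 and -0.82. Of 13 tip genes 5 were lower and 0 higher, with a list median of -1.16. *Esm1*, secreted by tip cells, stood at 11, 2.37 and 6.36 against 200, 50.6 and 30.0 CPM (log2 -3.91, SE 0.29, adjusted p 2.53e-06). *Ednrb* (log2 -2.01) and *Cxcr4* (log2 -1.72) were lower too, as were *Kcne3* and *Angpt2*, which had 0 UMIs in the *Tspan12* KO positive ECs. With genes at 0 UMIs set to a floor of 3 counts the list medians were -1.5 and -0.81. Without WT 0 of 12 arterial genes passed (list median -0.71) and 2 of 12 tip genes were lower (-0.31). All lower calls fell from 208 to 29 there, so this loss does not place the arterial difference in WT alone. In *Xist* cells 0 of 12 and 2 of 12 were lower. Against negative ECs with *Cldn5* and no *Plvap* UMI the tip list lost its direction, with 1 higher, 1 lower and a median of 0.22 over 9 genes, while 9 of 13 arterial genes were lower.

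Venous genes moved both ways, with 3 of 11 higher, 2 lower and a median of 0.16. *Aplnr*, the apelin receptor, stood at 293, 484 and 151 against 110, 219 and 91.0 CPM (log2 1.18, adjusted p 0.00104). *Nr2f2*, a regulator of vein identity, was higher by 0.89 on the log2 scale (adjusted p 0.0055) and *Nrp2*, a co-receptor on veins and lymphatics, by 0.67 (adjusted p 0.026). *Vwf*, which marks larger veins, was lower (78.2, 52.2 and 55.2 against 216, 65.5 and 143 CPM, log2 -1.12, adjusted p 0.00686), as was the leukocyte adhesion gene *Vcam1* (log2 -2.29, adjusted p 0.0102). Of these *Aplnr* alone passed without WT, and 0 of 9 passed in *Xist* cells.

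**Figure D3:**
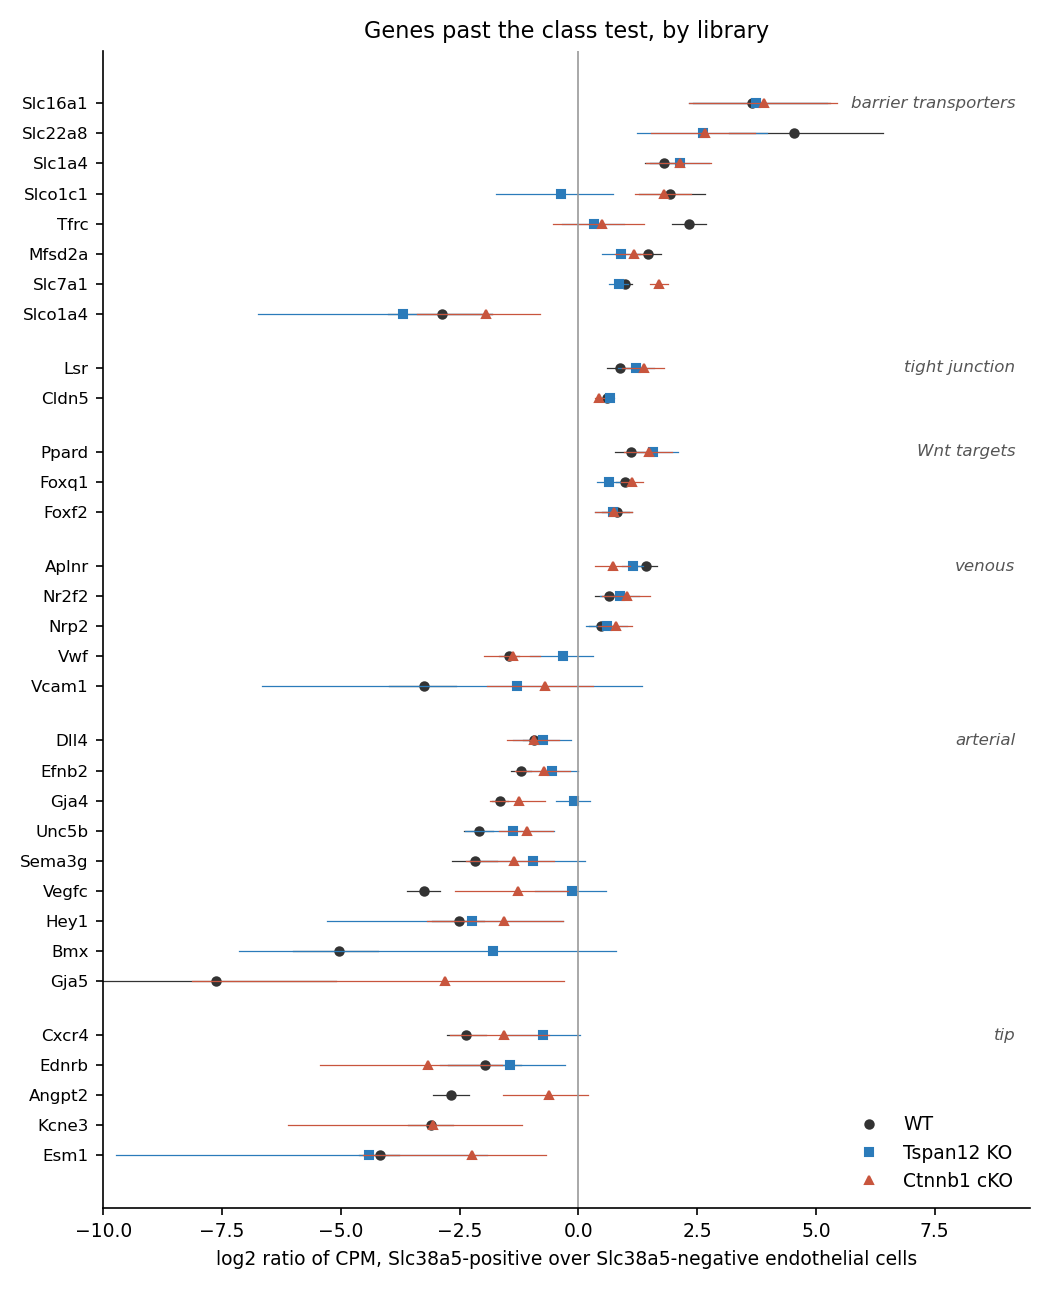
Log2 ratio of CPM of positive over negative ECs in each library, with 95% exact intervals from the UMIs, for genes past the test in 6 of the lists. Most points of a gene lie on one side of 0, *Slco1c1* of *Tspan12* KO lies on the other side, libraries at 0 UMIs have no point, and intervals past the axis are clipped.

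Outside these lists the 10 largest rises and falls among genes with 1 direction in all 3 libraries included metabolic genes. *Angptl4*, a secreted inhibitor of lipoprotein lipase, stood at 92.5, 59.3 and 38.2 against 26.9, 11.9 and 6.46 CPM (log2 2.21, adjusted p 5.05e-05), and *Gatm*, the first enzyme of creatine synthesis, at 118, 73.5 and 44.6 against 14.8, 23.9 and 11.4 CPM (log2 2.27, adjusted p 0.00013). *Cacna1e*, a voltage-gated calcium channel subunit, was among the most even, at 142, 109 and 110 against 33.0, 19.1 and 24.3 CPM (log2 2.31, adjusted p 3.85e-06). The falls held the water channel *Aqp1*, at 0.366, 0 and 6.36 against 18.8, 126 and 239 CPM (adjusted p 9.52e-07), which was at least 17.7-fold lower in *Tspan12* KO, and *Dkk2*, a secreted Wnt modulator, at 1.46, 0 and 4.24 against 75.4, 19.3 and 64.2 CPM (adjusted p 1.5e-06). Fitted folds of genes with 0 UMIs in a library depend on the prior count and are not given.

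Markers of other cells moved with some of these calls. Of 5 astrocyte genes tested 4 were higher, *Gfap*, *Pdgfra*, *Aldoc* and *S100b*, and *Gfap* and the astrocyte gene *Mlc1* headed all rises, while *Aqp4* of the same list had 0 UMIs in both classes of every library. The *Gfap* UMIs lay in 4, 2 and 3 positive ECs of WT, *Tspan12* KO and *Ctnnb1* cKO. Summed astrocyte markers stood at 10.1, 489 and 50.9 CPM in the positive ECs of WT, *Tspan12* KO and *Ctnnb1* cKO. In the negative ECs they stood at 19.5, 23.9 and 4.18 CPM, so they were not higher in the positive ECs of WT. In the positive ECs of *Tspan12* KO 2 cells held 98.1% of them. Pericyte genes were lower for 2 of 8 tested, *Rgs5* and *Abcc9*, with sums of 89.3 to 382 against 203 to 699 CPM. Rod genes were lower for 3 of 6, with sums of 161 to 301 against 270 to 641 CPM, and 1 of 6 Müller glia genes, *Crym*, was lower. Without the *Tspan12* KO library 0 of 3 fitted astrocyte genes passed, and without WT 0 of 8 pericyte and 0 of 6 rod genes passed. Erythrocyte genes passed for 0 of 5, microglial genes for 0 of 6, neuronal genes for 0 of 3 and fibroblast genes for 0 of 1. Without cells bearing at least 3 astrocyte or 3 pericyte markers (203, 15 and 55 positive ECs remained), 108 genes were higher and 224 lower, of which 95 and 179 were among the first calls. *Gfap* and *Mlc1* could not be fitted there, and *Rgs5* turned to 0.70. The part of rod RNA in the falls was not tested.

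Between genotypes, the positive ECs were compared as 1 library against another, with no test. Genes with at least 50 UMIs over both libraries were counted when the log2 ratio of CPM plus 5 passed 2-fold. In *Tspan12* KO 171 of 9236 genes were higher (1.85%) and 388 lower (4.2%) than in WT, and in *Ctnnb1* cKO 312 of 9245 were higher (3.37%) and 764 lower (8.26%). The medians of all genes were -0.05 and -0.12. The 18 *Tspan12* KO cells hold few UMIs, so ratios of low genes have wide intervals, and intervals from UMIs understate cell-to-cell spread. The negative ECs set beside them were 100 of 396 non-cycling ECs in WT, 214 of 287 in *Tspan12* KO and 1543 of 1697 in *Ctnnb1* cKO. Their arterial list summed to 2204, 987 and 1303 CPM. In the ratios of negative ECs to WT, the mix of cells and the genotype cannot be told apart.

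The summed marker levels of the positive ECs were lower in both mutants than in WT. *Itm2a* had a log2 ratio to WT of -0.38 in *Tspan12* KO (-0.52 to -0.24) and -1.24 in *Ctnnb1* cKO (-1.42 to -1.06). *Apod* had -1.23 (-1.69 to -0.80) and -0.84 (-1.22 to -0.48), and *Lrp8* had -0.85 (-1.14 to -0.57) and -0.70 (-0.96 to -0.44). In the negative ECs the ratios were -0.92 and -1.75 for *Itm2a*, -2.90 and -0.15 for *Apod* and -1.11 and -1.43 for *Lrp8*. Of these 3 markers 1 was lower by 2-fold or more in each mutant, *Apod* in *Tspan12* KO and *Itm2a* in *Ctnnb1* cKO. Of all genes 4.2% and 8.26% were lower by 2-fold or more in the same comparisons. The mutant cells lay nearer to the gate, and among positive ECs below 5 *Slc38a5* UMIs per 10000 the differences were smaller for some markers. There *Itm2a* stood at 1140 CPM in WT against 998 and 583 in the mutants, *Apod* at 193 against 108 and 132, and *Lrp8* at 427 against 242 and 294.

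Some carriers were lower in the mutant positive ECs, while others had ratios near 0. In *Tspan12* KO 3 of 19 barrier carriers with enough UMIs were lower by 2-fold or more, *Tfrc*, *Slco1c1* and *Slc22a8* (list median -0.35), and in *Ctnnb1* cKO 5 of 19, *Tfrc*, *Slc1a4*, *Slc22a8*, *Slc16a1* and the taurine carrier *Slc6a6* (median -0.14), beside 4.2% and 8.26% of all genes. *Tfrc* had log2 ratios of -2.05 (-2.70 to -1.47) and -3.33 (-4.34 to -2.49), on 24 and 11 UMIs in the mutants. *Slc22a8* had -1.54 (-2.69 to -0.60) and -1.42 (-2.43 to -0.56). *Slc6a6* went in opposite directions, with 0.98 in *Tspan12* KO (0.79 to 1.16) and -1.09 in *Ctnnb1* cKO (-1.43 to -0.76). The glucose carrier *Slc2a1* had -0.01 (-0.18 to 0.16) and -0.14 (-0.31 to 0.03) in the positive ECs, with 0.70 and 0.62 in the negative ECs. *Slc7a1* had 0.12 (-0.06 to 0.30) and -0.10 (-0.28 to 0.09).

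Of 9 tight-junction genes 0 in *Tspan12* KO and 2 in *Ctnnb1* cKO, *Cldn5* and *Ocln*, were lower by 2-fold or more, beside 4.2% and 8.26% of all genes. *Cldn5* had log2 ratios of -0.52 in *Tspan12* KO (-0.60 to -0.45) and -1.10 in *Ctnnb1* cKO (-1.19 to -1.01), near those of the negative ECs at -0.59 and -0.95. *Ocln*, another tight-junction protein, had 0.18 (-0.34 to 0.66) and -1.65 (-2.61 to -0.83). *Plvap* had 0.98 in *Tspan12* KO (0.60 to 1.34) and 0.19 in *Ctnnb1* cKO (-0.28 to 0.63), while in the negative ECs it had 1.5 and 1.56. The tight-junction list had medians of -0.19 and -0.59.

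The pathway targets were lower by 2-fold or more for 1 of 9 in *Tspan12* KO (*Nkd1*) and 2 of 9, *Nkd1* among them, in *Ctnnb1* cKO. Of all genes 4.2% and 8.26% were lower by 2-fold or more in the same comparisons. *Nkd1* had -1.44 (-2.77 to -0.37) and -2.41 (-4.30 to -1.03) in the positive ECs, against 3.10 and 1.16 in the negative ECs. The tip gene *Angpt2*, a ligand that loosens vessels, stood at 17.4 CPM in WT positive ECs (95 UMIs), 0 in *Tspan12* KO and 25.5 in *Ctnnb1* cKO (12 UMIs, log2 ratio 0.55, -0.45 to 1.42). Of 11 tip genes 4 were lower by 2-fold or more in *Tspan12* KO, and 0 in *Ctnnb1* cKO, beside 4.2% and 8.26% of all genes.

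The largest genotype ratios included genes with like ratios in the negative ECs and markers of other cells. In *Ctnnb1* cKO the 5 highest (by CPM plus 5) held the interferon-induced genes *Ifit3* and *Ifit1*, the antigen presentation genes *Cd74* and *H2-K1*, and the unnamed transcript *Gm42047*. *H2-K1* stood at 66.6 CPM in WT and 38.0 and 762 in the *Tspan12* KO and *Ctnnb1* cKO positive ECs, and at 72.7, 75.0 and 643 CPM in the negative ECs. *Ifit1* stood at 4.03, 4.74 and 142 CPM in the positive and 4.04, 2.39 and 76.6 CPM in the negative ECs. The 5 lowest included *Tfrc*, *Sh2d4b*, *Hbb-bs* and *Hba-a2*. Microglial markers summed to 131, 104 and 607 CPM in the positive and 131, 121 and 594 CPM in the negative ECs, so they were higher in the *Ctnnb1* cKO library in both classes. Their part in the *Cd74* and *H2-K1* values was not tested.

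In *Tspan12* KO the 5 highest were *Aldoc*, *Plac9*, *Igfbp5*, *S100b* and *Hbb-bs*. *Aldoc* and *S100b* belong to the astrocyte list, and 2 cells held 98.1% of that list's UMIs. *Plac9* stood at 21.8 CPM in WT and 363 in *Tspan12* KO positive ECs. Its log2 ratio of CPM plus 5 was 3.78 there, -0.67 with a gate of 3 *Slc38a5* UMIs and 0.096 without cells bearing astrocyte or pericyte markers. *Igfbp5*, a binding protein of insulin-like growth factors, stood at 2.75 and 87.8 CPM. Hemoglobin genes followed few cells, since 2 of the 18 positive ECs held 99.7% of their erythrocyte-marker UMIs, and the list stood at 1361, 9384 and 193 CPM in the positive and 54.5, 4700 and 651 CPM in the negative ECs. The 5 lowest held the Y-linked *Ddx3y*, *Uty* and *Eif2s3y*, at 67.6, 54.7 and 58.2 CPM in WT and 0, 0 and 2.37 CPM in *Tspan12* KO, where 17 of 18 positive ECs had *Xist* and no Y-linked UMI. The remaining 2 were *Nfe2l3* and *Dennd4a*, at 29.8 and 130 CPM in WT and 0 and 16.6 CPM in *Tspan12* KO.

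**Figure D4:**
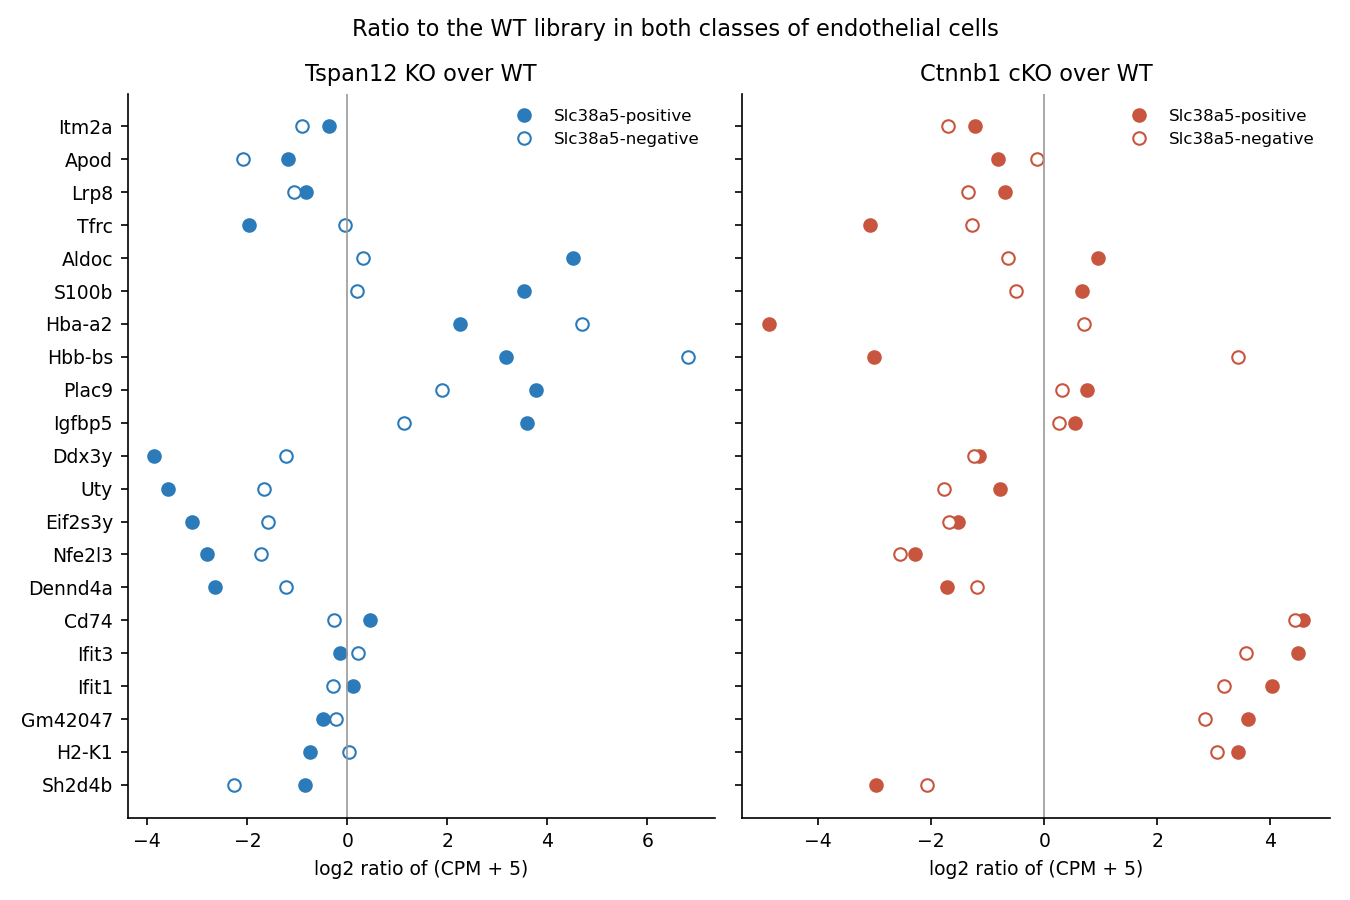
Log2 ratio of CPM plus 5 to WT for the 3 markers and genes with the largest genotype ratios, in positive ECs (filled) and negative ECs (open), with *Tspan12* KO on the left and *Ctnnb1* cKO on the right. *Cd74*, *Ifit3*, *Ifit1* and *H2-K1* lie above 3 in both classes of *Ctnnb1* cKO, whereas *Aldoc* and *S100b* lie above 3 in the positive ECs of *Tspan12* KO and near 0 in the negative ones.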

How the data were processed

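Retinal vascular cells of 3 genotypes, 1 library each, were measured by droplet sequencing of transcript ends. The deposited matrices hold raw UMI counts, 1 row per gene and 1 column per barcode, from the authors' Cell Ranger run. The matrix header names version 8.0.1 and the submitters' notes name GRCm39, while the study's methods give another version and build, so no coordinate was joined to the counts. No barcode held fewer than 500 UMIs, and 33528 barcodes and 33696 genes were read. Depth is given with each class, and intervals cover counting error only.

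Cells were chosen by the gates given at the opening of the report, and the members and gene lists were chosen with earlier results of these data known. Doublets were kept and were removed in an alternative (Scrublet in scanpy 1.11.5, 0.8% expected per 1000 cells), which marked 10, 4 and 2 positive ECs. Counts were summed per library and class and tested with edgeR 4.0.16 (quasi-likelihood, library block, TMM, filterByExpr, Benjamini-Hochberg threshold 0.05) in R 4.3.3. The 28 mitochondrial genes and genes of the gates were left out of the calls. DESeq2 1.42.0 was an alternative. On simulated data for this comparison (12402 genes) 59.8% of genes changed by log2 1 and 89.7% of those changed by log2 2 were recovered, and 8 unchanged genes were called. The simulation gave every gene the common dispersion of 0.0231 and each changed gene the same change in all libraries. Its figures therefore do not carry over to genes whose class difference varied between libraries. Genotypes were compared without a test, as CPM with exact Poisson intervals, ratios with exact conditional binomial intervals and shares with Clopper-Pearson intervals (95%, Python 3.11.15, scipy 1.17.1, numpy 2.4.6, pandas 2.3.3). Counts of genes in that comparison used CPM plus 5, at least 50 UMIs over the libraries and 2-fold. The floor for a library at 0 UMIs was 3 counts.

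Genes named are *Slc38a5*, the markers, the targeted genes, members of the 23 lists (203 genes, 1 left out for want of a unique symbol), the 10 largest rises and falls by class with 1 direction in all libraries, and the 5 largest rises and falls by genotype with a UMI in at least 20% of cells of the higher library. *Mlc1* is one of these 10. Alternatives changed the cell limits, the gates, the low-count filter, the scaling, the tool, the negative class and the libraries used. Leaving out cells with astrocyte or pericyte markers, and using *Xist* cells alone, were chosen after seeing the data. Some genes that these rules name are not reported here.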

Additional observations from a re-analysis of the deposited data

Results flagged for a closer look

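A few genes went in opposite directions between positive and negative ECs in different libraries, and these differences between libraries were not tested. *Hba-a2*, a hemoglobin chain, was higher in positive than in negative ECs of WT by 3.84 on the log2 scale and had -3.63 in *Ctnnb1* cKO. *Hbb-bs*, the beta chain, had 4.98 in WT and -1.79 in *Ctnnb1* cKO. *Dennd4a*, a regulator of Rab proteins, had 0.55 in WT and -1.09 in *Tspan12* KO.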

How the results depend on the processing

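Between genotypes no test, paired or not, was possible because each genotype has 1 library. The class test paired the positive and negative ECs of each library, with the library as the block. Of the values of named genes by class under the alternatives, 879 kept their direction and side of the threshold, 151 kept direction without passing, and 13 changed sign. By genotype 422 stayed within the counting interval, 94 moved further and 12 changed sign. Of counts and shares 92 stayed within 1.5 times or within the interval and 32 did not, and the cause was not tested where the setting itself does not give it. The count of higher genes (104) was 64 with a gate of 1 UMI, 65 against negative ECs with *Cldn5* and no *Plvap*, 13 in *Xist* cells and 45 to 167 with a library left out. The count of lower genes (208) was 97 with a gate of 1 UMI, 448 with 3 UMIs, 362 without a low-count filter, 77 with DESeq2, 32 in *Xist* cells and 29 to 351 with a library left out. Positive ECs numbered 136 in WT with a mitochondrial limit of 5%, 73 and 7 in *Tspan12* KO with gates of 1 and 3 UMIs, and 154 and 25 in *Ctnnb1* cKO. Thinned to 1000 or 4000 UMIs the shares were 26.5% and 57.2% in WT, 3.14% and 11.7% in *Tspan12* KO, and 3.48% and 8.47% in *Ctnnb1* cKO. Genes higher by genotype in *Tspan12* KO (171) were 267 with 3 UMIs, 288 by the mean over cells and 65 in *Xist* cells, and lower genes (388) were 159 with 1 UMI, 967 with 3 UMIs and 162 in *Xist* cells. In *Ctnnb1* cKO 203 were higher in *Xist* cells and 1209 lower with 3 UMIs.

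These log2 values changed sign. By class, *Tspan12* (-0.04) had 0.20 with 1 UMI and -0.47 to 0.17 with a library left out. *Ctnnb1* (0.01) had -0.084 without Scrublet doublets, -0.050 with the stricter endothelial gate, -0.048 with total UMIs, -0.020 without the filter and -0.037 to 0.056 with a library left out. *Plvap* had 10.50 against negative ECs chosen to lack it, by construction. Without cells bearing astrocyte or pericyte markers *Rgs5* had 0.70 and *Aldoc* -0.69, and with 3 UMIs *Aldoc* had -0.63 and *S100b* -0.46. By genotype in *Tspan12* KO, *Plac9* had -0.67 with 3 UMIs, *H2-K1* 0.16 with 1 UMI, and without Scrublet doublets *Hbb-bs* had -0.066 and *Hba-a2* -0.44. In *Ctnnb1* cKO *Plac9* had -0.64 and -0.63 with 1 and 3 UMIs, -0.44 without marker-bearing cells and -1.03 in *Xist* cells. *Hbb-bs* there had 1.54 without doublets, 1.77 without marker-bearing cells and 1.56 in *Xist* cells, where *Hba-a2* had 0.39.

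The markers *Itm2a*, *Apod* and *Lrp8* stayed higher under every alternative. With 1 library a genotype, no difference between genotypes has a replicate check, and the 18 *Tspan12* KO cells limit what can be seen there. The order of the mutant shares at equal depth lies within their intervals.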

Other observations

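The share of positive ECs also differed by the sex transcripts of the cells in *Ctnnb1* cKO. Of non-cycling ECs with *Xist* and no Y-linked UMI, 59.7% (43 of 72) were positive in WT, 8.90% (17 of 191) in *Tspan12* KO and 1.30% (7 of 538, 95% exact binomial interval 0.525 to 2.66) in *Ctnnb1* cKO. Of those with a Y-linked and no *Xist* UMI, 54.3% (108 of 199) were positive in WT, 0 of 22 in *Tspan12* KO, which allows a share of up to 15.4%, and 7.38% (20 of 271, 4.57 to 11.2) in *Ctnnb1* cKO. Median depths of these *Ctnnb1* cKO cells were 4391 and 4571 UMIs. Both classes of cells gave a higher share in WT than in either mutant.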
